A study of Mus musculus with 8 samples.

Results

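Colon assembloids are co-cultures in which intestinal organoids are embedded in Matrigel together with cultured stromal cells of the mouse colon. Among the stromal cells, those described here are fibroblasts that carried transcripts of hypoxia-induced genes, chosen by a UMI (unique molecular identifier, the tag of 1 captured transcript) of at least 2 of Adm, Ndufa4l2 and Apln. A member also had at least 500 genes, at most 10% mitochondrial UMIs, at least 3 UMIs of Col1a2 and none of Epcam. It had a UMI of fewer than 2 of Bmp2, Bmp5, Bmp7 and Adamdec1, and did not have at least 2 UMIs of both Mki67 and Top2a, which mark cycling cells. There were 1784 such marker-positive fibroblasts, 942 in stromal library 1 and 842 in stromal library 2, among 15558 fibroblasts (at least 3 UMIs of Col1a2, no Epcam), among 18068 stromal cells that passed the filter and among 77108 passing cells in all 8 libraries. They were set against 8166 marker-negative fibroblasts of the same libraries with no UMI of the 3 markers.

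Both stromal libraries came from one kind of assembloid, built from cells of wild-type C57BL/6 mice, with no treatment between them, so every comparison here is between cells of the same cultures and not between conditions. The stromal cells had been expanded from digested colon in serum before they were combined with organoids, the assembloids grew on an orbital shaker in organoid medium without noggin, R-spondin 1, CHIR-99021 or surrogate Wnt, and single cells were freed by enzyme digestion. The other 6 libraries hold epithelium of assembloids, organoids and colon tissue, 2 each. Nothing in the sources used here records the oxygen level or the place of a cell in the assembloid. A level is given below as CPM, the UMIs of a gene in a class, summed over its cells and scaled to 1000000 UMIs, first for library 1 and then for library 2. The sums held 13447567 and 11934651 UMIs in marker-positive and 50604552 and 74800585 in marker-negative cells.

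Cells read oxygen through prolyl hydroxylases, which mark the HIF alpha proteins for destruction by the VHL ligase. When oxygen runs short the HIF proteins persist, pair with ARNT and bind the core letters ACGTG or GCGTG in DNA. Their targets raise glucose uptake and glycolysis, hold pyruvate back from mitochondria and signal to vessels. Adm encodes adrenomedullin, a peptide that widens vessels, Apln encodes apelin, the ligand of the receptor Aplnr, and Ndufa4l2 encodes a mitochondrial protein that HIF induces and that restrains the respiratory chain.

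The promoter windows of 2 marker genes and of 2 classical HIF targets that differed between the classes are shown so that the HIF core letters can be seen in place. Each runs from 250 bases before to 50 bases after the start of the RefSeq transcript on GRCm38.p6, at chr7:110627407-110627706 on the + strand for Adm, chrX:48034804-48035103 on the − strand for Apln, chr7:138909457-138909756 on the − strand for Bnip3 and chrX:106186850-106187149 on the + strand for Pgk1, and is written 5′ to 3′ along the gene. The genes themselves span chr7:110627661-110629820, chrX:48025146-48034853, chr7:138890836-138909519 and chrX:106187100-106203699 in the GENCODE M21 annotation, and the third marker, Ndufa4l2, spans chr10:127514967-127517154. Capitals mark ACGTG or GCGTG on either strand, CACGT and CACGC being the same letters read on the other strand, and neighbouring matches can overlap.
Adm: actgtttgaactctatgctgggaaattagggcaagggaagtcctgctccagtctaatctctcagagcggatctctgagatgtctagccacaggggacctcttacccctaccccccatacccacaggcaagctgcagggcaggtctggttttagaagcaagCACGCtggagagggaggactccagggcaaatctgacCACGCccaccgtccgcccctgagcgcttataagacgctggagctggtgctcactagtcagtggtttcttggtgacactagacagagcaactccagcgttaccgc
Apln: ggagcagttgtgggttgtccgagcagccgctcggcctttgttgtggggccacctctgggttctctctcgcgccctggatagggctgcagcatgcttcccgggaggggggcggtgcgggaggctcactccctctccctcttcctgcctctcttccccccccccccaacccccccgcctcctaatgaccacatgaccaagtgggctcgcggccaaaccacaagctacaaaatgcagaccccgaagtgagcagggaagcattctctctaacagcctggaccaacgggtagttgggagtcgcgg
Bnip3: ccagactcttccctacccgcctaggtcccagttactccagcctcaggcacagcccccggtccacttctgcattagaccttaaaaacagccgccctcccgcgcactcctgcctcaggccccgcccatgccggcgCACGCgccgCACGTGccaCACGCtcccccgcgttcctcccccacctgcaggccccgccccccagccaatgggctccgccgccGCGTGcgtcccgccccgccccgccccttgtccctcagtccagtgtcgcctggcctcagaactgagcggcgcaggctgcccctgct
Pgk1: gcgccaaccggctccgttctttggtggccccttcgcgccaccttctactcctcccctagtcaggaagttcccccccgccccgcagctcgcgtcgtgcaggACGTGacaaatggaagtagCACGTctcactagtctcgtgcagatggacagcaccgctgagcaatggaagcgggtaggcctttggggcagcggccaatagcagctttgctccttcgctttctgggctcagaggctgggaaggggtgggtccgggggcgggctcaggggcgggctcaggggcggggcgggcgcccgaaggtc

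The Adm window held 2 matches of GCGTG, the Pgk1 window 2 of ACGTG, the Bnip3 window 5 matches in all and the Apln window 0. Of 32851 windows of mouse genes 43.8% held a match, and of 13957 windows of the genes tested below 60.8% did. ACGTG alone stood in 25.0% of the windows of tested genes and in 48.6% of 35 windows of glycolysis genes, but in 15.4% of 13 windows of vascular ligands. In the other lists of hypoxia genes used below its share ran from 44.4% of 18 windows to 66.7% of 6. Either motif stood in 77.1% of the glycolysis windows and in 81.8% of 11 windows of cholesterol synthesis genes, which fell. Windows of the genes called higher in both comparisons below held a match in 63.3% of cases and those of the genes called lower in 64.6%. For ACGTG alone these shares were 30.1% and 25.9%, and 27.3% for the cholesterol windows. A match is a run of letters, and no binding was measured.

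Ndufa4l2 was carried by most members. Adm with Ndufa4l2 made up 43.8% and 35.2% of the members of libraries 1 and 2, Ndufa4l2 with Apln 24.5% and 30.6%, all 3 markers 29.7% and 30.2%, and Adm with Apln 1.91% and 4.04%. The levels that chose the cells were 153 and 121 CPM of Adm, 947 and 715 CPM of Ndufa4l2 and 64.7 and 77.8 CPM of Apln. At the edge of the rule, 85 and 94 members had a single UMI of each of 2 markers, and 1591 and 1584 fibroblasts with a UMI of 1 marker lay just outside. A further 286 and 231 fibroblasts with 2 or 3 markers were left out for BMP ligands or Adamdec1, and 244 and 79 as cycling. The markers went together in single cells: at equal depth Ndufa4l2 was seen in 76.1% and 59.6% of fibroblasts with Adm and in 30.9% and 19% of those without.

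Since a deeper cell more often shows a marker, cells were thinned to 5000 UMIs before shares were compared. Only the markers were read after thinning. The other conditions of the rule were read on full counts, so the exclusions were not applied at equal depth. On these terms 7.71% of fibroblasts in library 1 met the rule (538 of 6975 cells, exact 95% interval 7.1 to 8.36) and 5.38% in library 2 (454 of 8433, 4.91 to 5.89). Before thinning it was 13.3% of 7073 and 9.92% of 8485 fibroblasts, and the intervals cover counting error only. These shares are of all fibroblasts, and of those that passed the exclusions 12.1% of 4434 and 7.72% of 5884 had 2 or 3 markers after thinning. Thinned fibroblasts with BMP ligands or Adamdec1 had 2 or 3 markers in 10.5% and 5.29% of cases and cycling fibroblasts in 6.0% and 2.08%. The members are thus part of a wider marker-positive population.

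The markers were not particular to fibroblasts. Of cells of the stromal libraries with at least 3 UMIs of Epcam, 10.1% and 8.22% of 924 and 73 had 2 or 3 markers after thinning, and 28.9% and 23.3% before it, when their median depth was 24304 and 33571 UMIs. Over all fibroblasts the share was 10.7% and 6.65% after thinning and 20.7% and 13.6% before it, at a median of 15005 and 13341 UMIs. The fibroblasts' share was thus close to that of these Epcam cells, which are no cell type known to lack the markers, and the part of transcripts free in the droplets was not tested. The stromal libraries shared 28 barcodes, and no doublet caller was run.

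Both classes were chosen as fibroblasts by Col1a2 and Epcam, so a contrast between them does not test that label. Some fibroblast and some pericyte markers were higher in members. Dcn, the collagen-binding proteoglycan decorin, stood at 1709 and 2422 CPM in members and 988 and 1669 in marker-negative cells. Its level was 1145 and 1892 CPM in depth-matched cells. Of 8 fibroblast markers 4 passed the test described next as higher, with 0 lower. Of 7 pericyte markers 4 were higher than in depth-matched cells, with a difference of 3.05 for Rgs5, and their levels follow below. Epithelial markers summed to 29.0 and 11.6 CPM in members and 24.3 and 13.3 in marker-negative cells, with 0 of 8 genes past the test in either direction. The median cell depth was 12368 and 12515.5 UMIs in members and 14718 and 12912 in marker-negative cells, and the median number of genes 3220.5 and 3105 against 3819 and 3462. The members had a smaller mitochondrial share, a median of 2.58% and 2.73% of UMIs against 4.29% and 4.4%.

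The first comparison asked which other genes differed between the classes. UMIs were summed per class and library and tested with edgeR's quasi-likelihood test, with the library as a block and Benjamini-Hochberg adjustment over all genes at 0.05, and the 11 genes of the rule are left out of every count. Of 14419 genes, 2880 were higher in marker-positive cells (20%) and 2968 were lower (20.6%). The first comparison set of cells had not passed the exclusions of the members, so a second comparison paired each member with the marker-negative cell of the same library that was closest in UMIs and did pass them. There 1551 of 13072 genes were higher (11.9%) and 1422 lower (10.9%). The counts depend on the block, which takes up the difference between libraries: the fit without it gave 399 higher (2.77%) and 502 lower (3.48%) in the first and 66 higher (0.505%) and 5 lower (0.0382%) in the second. DESeq2 gave 1308 higher (9.07%) and 1507 lower (10.5%) in the first and 534 higher (4.09%) and 276 lower (2.11%) in the second. Calls of at least 2-fold numbered 800 higher (5.55%) and 502 lower (3.48%) in the first comparison and 416 higher (3.18%) and 97 lower (0.742%) in the second.

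With the library as a block, the p-values set the difference between the classes only against how far it varies between 2 libraries. For a single gene 2 libraries say little of that spread, and edgeR's fit draws on all genes to estimate it. A very small p-value therefore does not measure the gene's own spread. The study's methods call these libraries biological replicates and name 2 mice as the source of their stromal cells. The cells were picked for oxygen-regulated genes, and both comparisons use the same members, so the counts of the hypoxia lists describe what goes with the markers and are no independent evidence for the word hypoxic. Differences are on the log2 scale of edgeR's TMM normalization, which sets members 0.14 higher than scaling to total UMIs does in either comparison, and the median of all genes was 0.03 in the first and 0.01 in the second. Below, levels are given for members and then for depth-matched cells, and a change is that of the second comparison unless the first is named.

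The 10 genes highest by the naming rule had low or moderate levels in marker-negative cells. In each both values of the members lay above all 4 comparison values, which the rule itself required for those of the first comparison. Over all genes tested, on CPM, members lay above the comparison values without overlap for 19.7% and below them for 39.5% in the first comparison, and for 15.5% and 36.9% in the second. Cox4i2, the oxygen-regulated isoform of a cytochrome c oxidase subunit, had 144 and 76.0 CPM in members and 4.59 and 2.68 in depth-matched cells. Its log2 difference was 4.4 (SE 0.08, adjusted p = 4.0e-15, edgeR) in the first comparison and 5.05 in the second. Rbp4, the plasma carrier of retinol, had 340.0 and 428 CPM against 24.8 and 18.9, a difference of 4.0 in the first comparison and 4.26 in the second. Rbp4 was higher in library 2 than in library 1 among members, and Cox4i2 was lower.

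Ero1l, the oxidase that drives disulfide bonding in the endoplasmic reticulum, had 554 and 329 CPM against 55.6 and 37.1. Ndrg1, a stress gene known for its induction by low oxygen, had 142 and 96.5 CPM against 12.4 and 16.8. Bnip3, a receptor that sends mitochondria to mitophagy, had 342 and 334 CPM against 40.7 and 32.1, a difference of 3.35 (SE 0.09, adjusted p = 3.0e-06, edgeR). Bnip3 hardly differed between the libraries, whereas Ero1l was lower in library 2 in members and in comparison cells.

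Egln3, an oxygen-sensing prolyl hydroxylase that HIF induces, had 106 and 58.5 CPM against 13.6 and 9.90. Pdk1, the kinase that keeps pyruvate out of the citric acid cycle, had 67.5 and 65.0 CPM against 10.3 and 6.80. Selenbp1, a selenium-binding protein, had 108 and 96.8 CPM against 15.7 and 18.9. Fam162a, a mitochondrial protein induced by HIF, was the most abundant of the 10, at 1374 and 1027 CPM against 289 and 167. The 10 differences of the first comparison ran from 2.47 for Fam162a to 4.4 for Cox4i2.

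**Figure D1:**
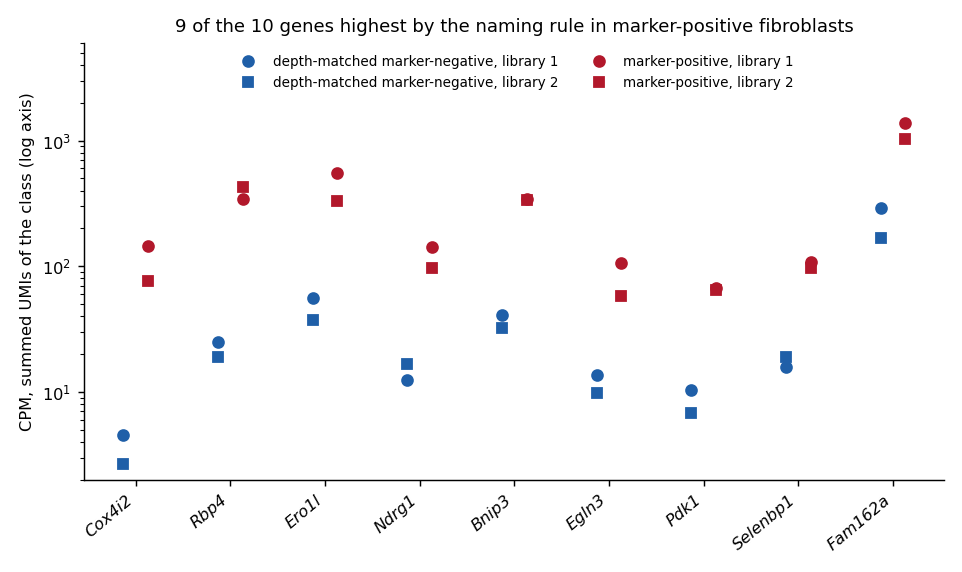
Level of 9 of the 10 highest genes by the naming rule in CPM of summed UMIs (log axis), for marker-positive and depth-matched marker-negative fibroblasts in stromal libraries 1 and 2, 1 point per class and library. Every marker-positive point lies above both comparison points of its gene, as for Cox4i2 at 144 and 76.0 CPM against 4.59 and 2.68. The naming rule required such a separation in the first comparison.

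Glucose uptake and glycolysis rose nearly as a whole. Of 23 genes 21 were higher in the first comparison and 19 in the second, 0 were lower in either, and the medians were 1.44 and 1.5. Without the block 12 and 5 of them passed. Slc2a1, the glucose transporter GLUT1, had 156 and 102 CPM against 36.6 and 24.5, and its relative Slc2a3 rose by 2.96. Pgk1, the kinase of phosphoglycerate, had 1419 and 1111 CPM against 346 and 203, a difference of 2.38 (SE 0.10, adjusted p = 2.4e-05, edgeR). For Slc2a1 and Pgk1 the members lay above all comparison values, as for 15.5% of all genes tested in the second comparison.

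Further down the pathway, Ldha, which turns pyruvate into lactate, had 1568 and 1134 CPM against 782 and 528, and Slc16a3, the lactate exporter MCT4, had 249 and 154 CPM against 73.7 and 31.2. Aldoc, an aldolase isoform, rose by 3.81 from 2.41 and 0.923 CPM to 22.8 and 20.6. Hk2, the first step of glycolysis, and Pfkfb3, which activates phosphofructokinase, rose by 1.08 and 2.30, while Pfkfb4 differed by 0.10 and did not pass. Gapdh rose by 1.32. Gapdh, Aldoa, Pgk1, Ldha and Mif have near-identical copies in the mouse genome, so their counts are uncertain.

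Of the genes that sense oxygen or feed back on HIF, 10 of 15 were higher and 1 lower in the first comparison, and 8 and 0 in the second. Egln1, the main oxygen-sensing hydroxylase, had 208 and 159 CPM against 49.0 and 36.3, a difference of 2.24. Ankrd37, a small HIF target, rose by 3.80, from 5.71 and 4.78 CPM to 71.2 and 62.0. Vhl, the part of the ligase that binds HIF alpha, had 25.8 and 19.4 CPM against 12.0 and 14.3, a difference of 0.92.

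Hif1a itself was lower in members in the first comparison, at 196 and 174 CPM against 248 and 216, a difference of -0.18. Its difference was 0.07 (SE 0.06, adjusted p = 0.389, edgeR) against depth-matched cells, which had 207 and 179.6 CPM. HIF-1 alpha is regulated mainly through the stability of the protein, which was not measured.

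Of 8 genes of mitochondrial adaptation, 6 were higher and 1, the mitophagy receptor Bcl2l13, was lower in both comparisons. Bnip3l, the close relative of Bnip3, had 240.3 and 197 CPM against 118 and 115, and Higd1a, a small protein of the respiratory chain, 445 and 378 against 147 and 114. Of 18 other hypoxia-induced genes, 15 were higher in the first comparison and 16 in the second, with 0 lower. Ddit4, which inhibits mTORC1, had 289.7 and 224 CPM against 126 and 91.4, and Mif, a cytokine, 3071 and 2408 against 1090 and 688.

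Glycogen enzymes were among these genes. Gbe1, which branches glycogen, had 49.6 and 30.5 CPM against 7.97 and 4.61, and Gys1, glycogen synthase, rose by 2.06. Hmox1, which degrades haem, had 434 and 235 CPM against 68.9 and 79.7. Car9, a carbonic anhydrase much used as a marker of low oxygen, was scarce throughout, at 8.70 and 4.86 CPM against 1.80 and 0.252. Its difference of 2.87 rests on 117 and 58 UMIs in members and 24 and 3 in depth-matched cells.

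The vascular ligands moved in part. Of 12 tested, 8 were higher in the first comparison and 5 in the second, and 0 were lower. Vegfa, the main growth factor of vessels, had 263 and 227 CPM against 94.3 and 59.8, a difference of 1.83 (SE 0.11, adjusted p = 8.7e-05, edgeR), and Pgf, placental growth factor, had 22.4 and 12.8 against 7.52 and 6.46. Vegfb, a relative that oxygen does not regulate in the same way, had 106 and 99.6 CPM against 99.9 and 97.8, and its difference of 0.19 did not pass (adjusted p = 0.0504, edgeR). The members lay above all comparison values for Vegfa and Pgf, as for 15.5% of all genes tested in the second comparison.

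The receptors were read in the few endothelial-like cells, 10 and 28 cells with fewer than 3 UMIs of Col1a2 and with endothelial transcripts. Kdr, the main receptor of Vegfa, had 179 and 232 CPM there and 0.744 and 1.51 in members. Calcrl, which forms an adrenomedullin receptor together with Ramp2, had 104 and 67.9 CPM in endothelial-like cells and 18.6 and 22 in members. Ramp2 had 506 and 498 CPM in endothelial-like cells and 18.7 and 39.9 in members. Ramp3, another partner of Calcrl, was highest in marker-negative fibroblasts, with 0 and 3.77 CPM in endothelial-like cells (0 and 2 UMIs), 12.8 and 3.52 in members and 32.1 and 18.2 in marker-negative fibroblasts. Calcrl and Ramp2 were thus higher in endothelial-like cells in both libraries, while Kdr was among the genes that chose those cells, so its level there is a description of that choice. Endothelial-like cells also carried Adm, at 193 and 92.4 CPM, so members were not its only source. Aplnr stood at 0 and 3.77 CPM in endothelial-like cells, which is 0 and 2 UMIs.

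**Figure D2:**
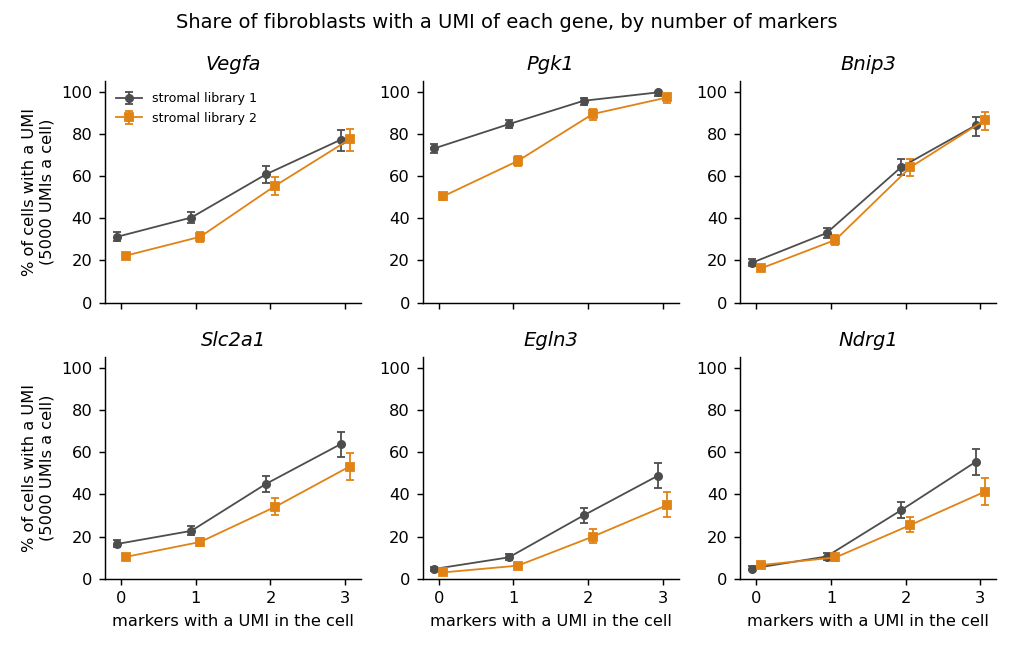
Share of fibroblasts, in percent, with a UMI of genes that the rule did not use, after thinning each cell to 5000 UMIs, for cells with 0, 1, 2 or 3 markers in stromal libraries 1 and 2, with exact 95% binomial intervals. The shares climb with the number of markers, for Bnip3 from 18.9% and 16.2% to 84.1% and 86.5%.

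Hypoxia genes that the rule did not use were read by the number of markers, and the 6 plotted were seen more often with each marker added. Car9 was an exception in library 1, with 3.27% and 1.72% of cells with 2 markers and 3.26% and 3.57% with 3. All cells here passed the exclusions and were thinned to 5000 UMIs, which left out 41 and 31 shallower cells with 0 markers, 27 and 9 with 1, 19 and 6 with 2 and 4 and 2 with 3. The number of markers of a cell was counted before thinning. Bnip3 was seen in 18.9% and 16.2% of fibroblasts with 0 markers, 33.0% and 29.8% with 1, 64.2% and 64.1% with 2 and 84.1% and 86.5% with 3. Vegfa was seen in 31.2% and 22.3% of cells with 0 markers and 77.2% and 77.4% with 3, and Egln3 in 4.66% and 3.02% and 48.9% and 34.9%. Cells with 1 marker, which belong to neither class, lay between the others for each gene plotted. The median mitochondrial share went the other way, from 4.48% and 4.61% with 0 markers to 3.99% and 4.10%, 2.94% and 2.98% and 2.10% and 2.30%. These orders are given without a test.

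Enzymes that modify collagen included genes that rose by over 2 log2 units, while collagens moved less. Of 13 enzymes 9 were higher and 1, the transglutaminase Tgm2, was lower in the first comparison, and 8 and 1 in the second. P4ha2, a subunit of the hydroxylase that steadies the collagen helix, had 376 and 276 CPM against 81.8 and 60.6, a difference of 2.33 (SE 0.06, adjusted p = 2.6e-06, edgeR). Its sister subunit P4ha1 had 604 and 542 CPM against 296 and 247, the lysyl hydroxylase Plod2 350.3 and 322 against 139.9 and 149.8, and the crosslinking oxidase Lox 324 and 265 against 169 and 165.

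Of 16 collagens 12 were higher in the first comparison and 9 in the second, with 0 lower and medians of 0.43 and 0.36. Col12a1, a fibril-associated collagen, rose by 0.94 and Col4a1, of basement membranes, by 0.65. Col1a1, the main fibril-forming chain, stood at 1308 and 1640 CPM against 1362 and 1959 and did not pass in either comparison. Timp3, an inhibitor of metalloproteases, had 191 and 127 CPM against 66.4 and 38.6, and the protease Mmp10 fell to 159 and 87.1 from 297 and 403.

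Stress genes did not move as one group, so the word stressed holds for some lists only. Immediate early genes, which cells switch on within minutes of a stimulus, were higher in 18 of 19 cases in the first comparison and 18 in the second, with medians of 0.73 and 0.60. Without the block 0 of them passed in either. Jun had 487 and 1252 CPM against 246 and 582, and Fosl1 78.3 and 39.5 against 23.7 and 13.7. For Fos the libraries lay further apart than the classes, at 297 and 1142 CPM against 234 and 600.2.

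Metallothioneins, which bind zinc and copper, rose: Mt1 had 2947 and 3875 CPM against 906 and 1496, and Mt2 497 and 665 against 153 and 227. With redox genes included, 6 of 10 were higher and 2 lower. Of 12 heat shock genes 5 were higher and 0 lower in the second comparison, among them Hspa1a, the inducible HSP70, with 639 and 1549 CPM against 243 and 751. Hspa1a has a near-identical copy, Hspa1b.

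Genes of the unfolded protein and integrated stress response split, 8 higher and 10 lower of 24 in the first comparison and 5 and 5 of 23 in the second. Ddit3, which encodes CHOP, Trib3, a target of CHOP, and Vldlr, a lipoprotein receptor that HIF also induces, rose by 1.22, 1.86 and 1.40. Phgdh, of serine synthesis, and Mthfd2, of mitochondrial folate metabolism, fell by 0.60 and 0.51. Of 13 p53 targets 2 were higher and 3 lower in the second comparison, in which 11.9% of all genes were higher and 10.9% lower. The higher ones were Cdkn1a, the cell cycle inhibitor p21, by 0.58 and Gdf15, a stress hormone, by 1.33.

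**Figure D3:**
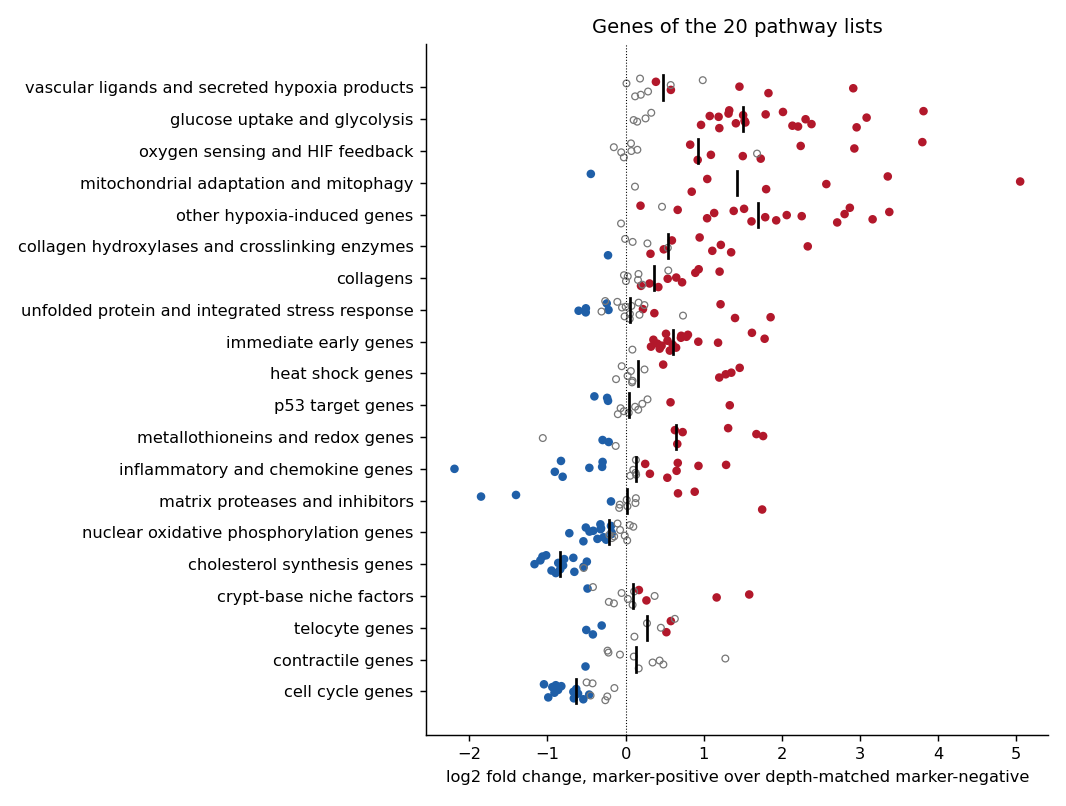
Log2 fold change of marker-positive over depth-matched marker-negative fibroblasts for the tested genes of 20 pathway lists, 1 point per gene, with genes past edgeR's test at an adjusted p of 0.05 set apart by colour from those that were not. Glycolysis genes lie about a median of 1.5 and cholesterol synthesis genes about -0.84.

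Inflammatory genes went both ways, 10 higher and 7 lower of 19 in the first comparison and 7 and 7 in the second. Il6 and the neutrophil chemokines Cxcl1 and Cxcl2 rose by 0.65, 0.67 and 0.93. The monocyte chemokine Ccl2 had 372 and 283 CPM against 585 and 686, the acute-phase gene Saa3 916 and 1008 against 1913 and 1780, and Il1rl1, the receptor of interleukin-33, 4.98 and 5.45 against 27.1 and 25.0. For these 3 the members lay below all comparison values, as for 36.9% of all genes tested in the second comparison. Macrophage markers were lower in members too, as given below, and their part in these values was not tested. Without the cells that carried transcripts of other cell types the differences were -0.74 for Ccl2, -0.71 for Saa3 and -2.27 for Il1rl1. Lcn2, lipocalin-2, fell by 0.91, but its difference without those cells was 0.36.

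Nuclear genes of oxidative phosphorylation were lower by small amounts: 17 of 23 passed in the first comparison and 14 in the second, 0 were higher, and the medians were -0.24 and -0.21. Uqcrq, of complex III, had 256 and 225 CPM against 404 and 365. Ndufa4, a paralogue of the marker Ndufa4l2, fell to 458 and 391 CPM from 782 and 750.1, a difference of -0.72 (SE 0.05, adjusted p = 2.6e-04, edgeR). Cox4i1, the common isoform beside Cox4i2, had 1141 and 974 CPM against 1150 and 1018 and did not pass.

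The 13 protein genes of the mitochondrial genome, taken up after their values had been seen, showed the smaller mitochondrial share gene by gene: 10 were lower and 2 higher in both comparisons, with medians of -0.51 and -0.52. mt-Co3, a core subunit of cytochrome c oxidase, had 4634 and 5280 CPM against 9280 and 9416. The higher ones were mt-Co1, with 6760 and 6565 CPM against 5510 and 5788, and mt-Nd6, with 70.2 and 76.8 against 45.9 and 49.9.

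Cholesterol synthesis genes fell together. In the first comparison 15 of 15 were lower and in the second 14, Lss being the exception, with medians of -0.90 and -0.84. Without the block 9 and 2 passed. Hmgcs1, at the entry to the pathway, had 51.9 and 52.4 CPM against 97.7 and 111, a difference of -0.86 (SE 0.07, adjusted p = 2.7e-04, edgeR). Idi1 and Fdps, which make isoprenoid units, had 41.5 and 33.2 CPM against 94.5 and 89.2 and 172 and 116 against 359.6 and 307, and Cyp51, a demethylase of lanosterol that uses molecular oxygen, 60.8 and 50.7 against 127 and 120.4. For each of these 4 genes the members lay below all comparison values, as they did for 36.9% of all genes tested in the second comparison.

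Cell cycle genes were lower in 20 of 20 cases in the first comparison, in which only the members had been cleared of cycling cells. They were lower in 15 of 20 when all marker-negative cells had the same exclusions and in 14 of 20 in the second comparison. The 10 lowest genes by the naming rule were Prc1, Hist1h1b, Cenpf, Pclaf, Ccna2, Hmmr, Hist1h2ap, Cenpe, Hist1h2ae and Birc5, all of cell division or histones. Birc5, which encodes survivin, had 30.6 and 20.3 CPM in members, 69.2 and 45.9 in depth-matched cells and 205 and 158 in all marker-negative cells. Prc1, a gene of cytokinesis, differed by -3.27 in the first comparison and -0.60 in the second. This ranking rests on the first comparison, in which the rule itself set cycling cells apart. Ranked by the second comparison instead, without the condition on overlap and chosen after the values were seen, the 10 lowest were Crabp1, Mmp10, Bex1, Idi1, Odc1, Cxcl10, Pclaf, Fdps, Birc5 and Cck, of which 2 are on both lists. Crabp1, which binds retinoic acid in the cell, had 78.9 and 10.9 CPM against 162 and 124, a difference of -1.81 (SE 0.43, adjusted p = 0.0241, edgeR), and the members of library 2 were far below those of library 1. The histone genes share reads with near-identical copies and are uncertain.

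Factors by which stroma supports the crypt base differed from gene to gene. Grem1, a BMP antagonist, had 910.1 and 774 CPM against 1077 and 849, and Rspo3, which amplifies Wnt signalling, 120.5 and 168 against 135 and 175, with differences of -0.05 (SE 0.05) and 0.03 (SE 0.06) that did not pass. Both had passed in the first comparison, at 0.31 and 0.32, where BMP-ligand and Adamdec1 fibroblasts were among the comparison cells. Rspo1, a second R-spondin, rose, with 9.74 and 16.3 CPM against 7.67 and 4.70. Of 13 niche genes 4 were higher and 1, Cd34, lower, of 9 telocyte genes 2 and 3, and of 10 contractile genes 0 and 1. Over all genes 11.9% were higher and 10.9% lower.

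Transcripts of other cell types moved with the classes. Macrophage markers were lower in 7 of 7 genes in both comparisons, and summed to 7.21 and 9.72 CPM in members, 20.8 and 39.9 in marker-negative and 63.7 and 134 in depth-matched cells. The depth-matched cells are part of the marker-negative ones, so the size of this difference depended on which cells were drawn. Pericyte markers were higher in 4 of 7 genes in the first comparison and 4 in the second, and summed to 331 and 279 CPM in members and 291 and 259.9 in depth-matched cells. Rgs5, the most specific of them, had 3.50 and 5.11 CPM against 0.677 and 0.419. Endothelial markers were higher in 6 of 10 genes in the first comparison and 0 of 6 in the second, at 42.4 and 44.2 CPM against 30.3 and 45.2 in the second.

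The counts were run again without every cell that had a UMI of any of 8 pericyte, endothelial, neural and macrophage genes, an alternative chosen after seeing the data, which kept 691 and 660 members. The counts were then 2390 higher (17.1%) and 2393 lower (17.1%) in the first comparison and 1781 higher (14.3%) and 1476 lower (11.8%) in the second. In the second, glycolysis genes were higher in 19 of 23 cases, cholesterol genes lower in 15 of 15 and immediate early genes higher in 17 of 19.

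The fibroblasts with 2 or more of Bmp2, Bmp5, Bmp7 and Adamdec1, which the rule set aside, let the same contrast be read in other cells, a comparison added after the data were seen. Their 286 and 231 marker-positive cells were set against 512 and 960 with 0 markers, in a fit with the members and the 1992 and 3506 marker-negative cells under the same exclusions. Among them 886 of 13581 genes were higher (6.52%) and 669 lower (4.93%). Glycolysis genes were higher in 19 of 23 cases with a median of 0.85, against a median of 1.49 in the members' kind, and cholesterol genes were lower in 15 of 15.

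A test of the difference between the kinds of fibroblast called 25 genes (0.184%), 13 with a higher difference in the members' kind and 12 (0.0884%) with a lower one. Cox4i2 differed by 4.62 in the members' kind and by 3.16 in Bmp or Adamdec1 fibroblasts (adjusted p of the interaction = 0.0101, edgeR). Egln3 differed by 3.11 and 1.88, P4ha2 by 2.33 and 1.41, and Slc2a1 by 2.16 and 1.26. Stc1, the hormone stanniocalcin-1, differed by 1.09 and -0.47. The genes with a lower difference included the platelet and macrophage gene Pf4, named here after its values were seen. Cells were not thinned here, and the classes were not alike in depth or in the markers themselves. Marker-positive Bmp or Adamdec1 fibroblasts were deeper, with medians of 18127.5 and 18833 UMIs, and carried 488 and 409 CPM of Ndufa4l2, against 12368 and 12515.5 UMIs and 947 and 715 CPM in members, and the part of these differences was not tested. For the hypoxia genes that were not called, the test does not show that the kinds changed alike.

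**Figure D4:**
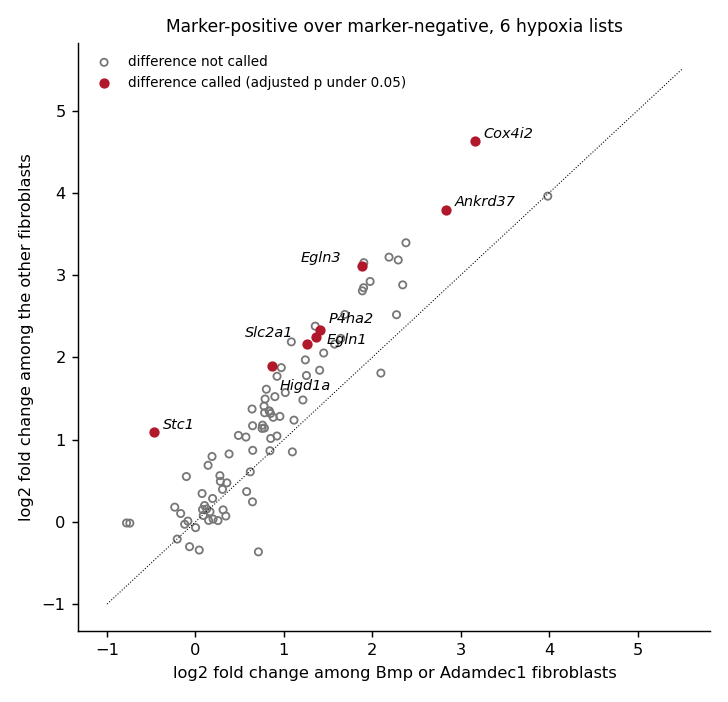
Log2 fold change of marker-positive over marker-negative cells for the genes of 6 hypoxia lists, among Bmp or Adamdec1 fibroblasts on the horizontal axis and among the other fibroblasts on the vertical axis, 1 point per gene, with the genes past the interaction test marked. The marked genes lie above the line of equality, Cox4i2 at 4.62 against 3.16.

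Some fibroblasts were captured with the epithelium of assembloids, and 65 and 54 of them met the rule, of 221 and 120. With the markers read after thinning to 5000 UMIs this was 26.1% of 157 cells (exact 95% interval 19.4 to 33.7) and 32.4% of 111 (23.9 to 42.0). The other conditions were again read on full counts. Adm and Ndufa4l2 did not go together here as they did in the stromal libraries, Ndufa4l2 being seen in 53.3% and 66.0% of fibroblasts with Adm and in 57.9% and 61.9% of those without, at equal depth and under the same exclusions. Apln was seen in 13.2% of 76 and 14% of 57 fibroblasts with Ndufa4l2 and in 5.0% and 3.12% of those without. With Adm it was seen in 8.33% and 10.6% of fibroblasts, and without Adm in 10.5% and 9.52%. The Apln shares rest on 13 and 9 cells with Apln, and whether they differ was not tested. The epithelial libraries carried Adm at 151 and 147 CPM over all their cells, and the part of transcripts free in the droplets was not tested. Only 42 and 14 marker-negative fibroblasts passed the same exclusions there, fewer in library 2 than the 20 a class needed, so values are given with no test.

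Cox4i2 had 89.6 and 102 CPM in these marker-positive cells (47 and 67 UMIs) and 33.3 and 26.3 in the marker-negative ones (7 and 3 UMIs). Of 78 genes of the 6 hypoxia lists with at least 20 UMIs in these cells, 47 (60.3%) were higher in marker-positive cells in both libraries and 8 (10.3%) lower in both, against 28.8% and 26.7% of all 7130 such genes. The classes were not matched in depth, with medians of 7219 and 11611 UMIs in marker-positive and 4699 and 7904.5 in marker-negative cells. Those that were higher included Ero1l with 962 and 984 CPM against 671 and 779 and Pgk1 with 568 and 718 against 471 and 377. Others hardly differed, as Vegfa with 442 and 234 CPM against 385 and 210.1, and those that were lower included Egln3 with 116 and 97.2 CPM in marker-positive against 124 and 158 in marker-negative cells and Slc2a1 with 255 and 323 against 357 and 420.3. Rbp4, among the highest genes in the stromal libraries, did not separate the classes here, with 21 and 38 CPM in marker-positive cells (11 and 25 UMIs) and 28.6 and 35.0 in marker-negative ones (6 and 4 UMIs). The Slc2a1 levels lay above the 156 and 102 CPM of the members in the stromal libraries. The epithelial libraries were counted with a later version of Cell Ranger than the stromal ones, as given below. The part of the version in levels and shares that differ between these kinds of library was not tested.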

How the data were processed

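Stromal and epithelial cells were profiled with the 10x 3′ v3 kit in 8 libraries. The authors deposited filtered UMI counts per gene and cell, made with Cell Ranger on mm10. The labels name version 6, and the file headers name 6.0.1 for the stromal libraries and 7.1.0 for the epithelial ones. Amplification copies of a molecule share a UMI and count once.

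Barcodes with fewer than 500 genes or over 10% mitochondrial UMIs were left out, which kept 161750159 and 139755286 UMIs in the stromal libraries, a median of 15448.5 and 13246 per cell. Counting error therefore limits scarce genes. No doublet caller was run, and leaving out the highest 6% of cells by UMIs was tried instead. With fewer than 3 UMIs of Col1a2 and none of Epcam, endothelial-like cells at least 2 UMIs of Pecam1 and 1 of Cdh5, Kdr, Tie1, Lyve1 or Egfl7.

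Counts summed per class and library were tested with edgeR 4.0.16 in R 4.3.3 (filterByExpr, TMM, quasi-likelihood), with the library as a block. The pairing is given by the design, as both classes of a number are cells of 1 library. DESeq2 1.42.0 was an alternative. Tested on simulated data, the fit of the first comparison (14276 genes) recovered 100 of 100 genes changed 2-fold and 100 of 100 changed 4-fold with 10 false calls, and that of the second (12933 genes) 100 and 100 with 1. Every simulated gene had the same dispersion, 0.00405 in the first and 0.00332 in the second, and the same change in both libraries. The recovery therefore does not show how the fit fares with genes that vary more.

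By the naming rule, genes were called with 1 sign in both comparisons, had an edgeR average log2 CPM of at least 5 and did not overlap between the classes, without genes of the rule and mitochondrial, ribosomal protein and predicted genes. The 10 at each end by fold change in the first comparison are named, but for 1 of the highest that is not reported here, with examples from the pathway lists. Members and lists were chosen with earlier results of these data known.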

Additional observations from a re-analysis of the deposited data

Results flagged for a closer look

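Signals of the markers appeared in libraries outside the main comparison. In the 2 epithelial libraries of assembloids 65 and 54 cells met the rule. Over all their cells those libraries carried 151 and 147 CPM of Adm, 36.3 and 48.8 CPM of Ndufa4l2 and 1.26 and 1.88 CPM of Apln. In the 4 libraries of organoids and colon tissue the highest levels were 5.01 CPM of Adm, 0.473 of Ndufa4l2 and 0.151 of Apln.

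The difference between marker-positive and marker-negative cells was not the same in the members' kind of fibroblast and in Bmp or Adamdec1 fibroblasts for 25 of 13581 genes by edgeR's interaction term, while 1139 had an unadjusted p under 0.05. Among the pathway genes called, the log2 difference in the members' kind exceeded that in the other kind by 1.56 for Stc1, 1.47 for Cox4i2, 1.23 for Egln3, 1.03 for Higd1a, 0.96 for Ankrd37, 0.93 for P4ha2, 0.90 for Slc2a1, 0.89 for Ptgs2 and 0.88 for Egln1. No group had the 4 samples that a check for outlying samples needs.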

How the results depend on the processing

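The counts of called genes depended on the test. In the first comparison, where 2880 and 2968 genes were higher and lower, DESeq2 called 1308 and 1507, the fit with no replicate block 399 and 502, comparison cells with the same exclusions 1903 and 1653 and cells without endothelial or pericyte UMIs 1506 and 1307, which kept 176 and 223 members. A fold of at least 2 left 800 and 502, and thinned cells gave 1902 lower genes. In the second, where 1551 and 1422 were higher and lower, DESeq2 called 534 and 276, the fit with no replicate block 66 and 5, and a fold of at least 2 left 416 and 97. The block belongs to the design, because both classes of a number come from the same library. The share of marker-positive fibroblasts, 6.55% as the mean of both libraries, was 11.6% without thinning, 1.28% for all 3 markers and 8.22% with at most 5% mitochondrial UMIs, and 5.38% to 7.71% leaving out either library. Of 227 differences of named genes, DESeq2 lost 25 calls and the fit with no block 128. Against comparison cells with the same exclusions, signs turned in the first comparison for Col1a1 (-0.028), Grem1 (-0.035) and Hif1a (0.12). In the second comparison Lcn2 turned to 0.36 without cells that had a UMI of other cell types. Among differences that had not passed, the sign turned with the library left out for Col1a1 (-0.10 without library 1 and 0.055 without library 2), Grem1 (0.027 without library 1 and -0.13 without library 2), Ptgs2 (0.39 without library 1 and -0.25 without library 2) and Rspo3 (0.11 without library 1 and -0.050 without library 2). The cause was not tested. Planned comparisons within the epithelial libraries of assembloids were not run, as library 2 held fewer than 20 comparison cells.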
